A study of Mus musculus with 16 samples.

Results

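The 9 genes described here handle glycogen or hexose phosphates in the liver: Gpi1, Ppp1r3g, Ppp1r3b, Ppp1r3c, Gys2, Pygl, Pfkfb1, Pfkfb2 and Gckr. They were picked by name, after it was known in which mice each carried an N6-methyladenosine (m6A) peak, and Gpi1 and Ppp1r3g were included for their opposite patterns between the diets. Peak presence by diet is therefore a description for these genes and was given no test. Of the 9 genes, 6 carried an m6A peak in at least 1 mouse, out of 7693 genes with a peak in the series, and their 30 peaks merged into 7 of 17526 regions. Livers came from male C57BL/6J mice, obtained at 10 to 11 weeks of age, that were then given, for 2 weeks, either a high-fructose diet (HFrD; 70% of energy from carbohydrate, 10% from fat and 20% from protein) or a normal diet (ND). In MeRIP-seq, RNA fragments bearing m6A are pulled down with an antibody, and a peak is a stretch where the pulled-down RNA is enriched. Of 16 libraries, 8 were immunoprecipitated, and each gave a peak list for 1 mouse: HFrD mice 1, 2, 5 and 7 and ND mice 1, 3, 6 and 7. The 8 input libraries were not analysed here, so peaks were not set against transcript levels, and the sequencing depth behind each list is unknown.

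The liver phosphorylates incoming hexoses, interconverts the resulting hexose phosphates, and either burns them, turns them into fat or stores them as glycogen. Glycogen synthase and glycogen phosphorylase build and break down the store, and protein phosphatase 1, brought to glycogen by targeting subunits, switches the synthase on and the phosphorylase off. Fructose enters this network below the main control points of glycolysis. m6A is placed mostly on the adenosine of short motifs of the GGAC kind, often near stop codons and in long exons, and is known to influence the stability and translation of messenger RNA.

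Sequences are shown for the regions that differed most between the diets and for Gckr, the gene whose peak was present in every mouse. All are RefSeq sequence of GRCm38, the assembly of mm10, written along the transcript. Capitals mark the word GGACT, its variant GGACC or its variant GGACA in the first pair of sequences, and in Gys2, which held none of these 3 words, they mark the wider family of 12 words (a pair of purines, then AC, then any base but G). The coding end of Gpi1, on the minus strand at chr7:34202414-34202549, closes with the stop codon. The Gckr exon, on the plus strand at chr5:31298165-31298320, is given whole. The coding part of Gys2 exon 16, on the minus strand at chr6:142423409-142423633, also closes with the stop codon.
Gpi1: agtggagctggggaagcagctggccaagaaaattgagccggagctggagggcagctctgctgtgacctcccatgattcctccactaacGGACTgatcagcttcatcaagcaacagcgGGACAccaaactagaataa
Gckr: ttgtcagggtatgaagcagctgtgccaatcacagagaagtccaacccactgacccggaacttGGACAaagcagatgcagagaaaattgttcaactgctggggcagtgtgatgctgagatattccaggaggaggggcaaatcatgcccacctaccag
Gys2 exon 16: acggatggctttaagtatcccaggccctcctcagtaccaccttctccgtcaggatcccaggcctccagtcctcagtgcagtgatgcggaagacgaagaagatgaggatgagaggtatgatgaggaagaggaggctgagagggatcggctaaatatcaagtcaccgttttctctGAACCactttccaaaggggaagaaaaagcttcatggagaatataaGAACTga

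The Ppp1r3g region was too long to print, so windows of 29 bases are given around the 3 GGACT words that lay in its coding sequence. They are on the plus strand at chr13:35968922-35968950, chr13:35968971-35968999 and chr13:35969399-35969427, with the motif adenosine 704, 655 and 227 nt upstream of the first base of the stop codon, and all 3 lay inside the peaks of all 4 HFrD mice. The fourth window is the GGACT of the Gpi1 3′ untranslated region, on the minus strand at chr7:34202293-34202321, 109 nt downstream of the first base of the stop codon.
Ppp1r3g first coding window: cgcgccggctggGGACTgctgctccaagt
Ppp1r3g second coding window: gccgactccctgGGACTgagcctggccag
Ppp1r3g last coding window: attgcagtcaggGGACTctggatcaaagg
Gpi1 untranslated window: ggtagttggcctGGACTacaaggctgttg

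Most of the 6 genes with a listed peak had it in more ND than HFrD mice, and Ppp1r3g went the other way. A peak was found in more HFrD than ND mice for 1 gene (Ppp1r3g), in more ND than HFrD mice for 4 (Gpi1, Gys2, Ppp1r3b and Pfkfb1) and in equal numbers for Gckr. Over all 7693 genes, peaks favoured HFrD mice in number for 17.7% and ND mice for 31.8%, so the whole series leaned the same way. Full separation, a peak in 4 mice of one diet and 0 of the other, was seen toward HFrD for 0.156% of genes (12) and toward ND for 0.364% (28); Ppp1r3g is among the 12 and Gpi1 among the 28. Among regions these shares were 0.0913% (16 regions) toward HFrD, with the Ppp1r3g region, and 0.365% (64 regions) toward ND, with the regions of Gpi1 and of Gys2 exon 16. These shares stand beside the counts as background only, since this contrast chose the genes. Across all genes, Fisher's exact test (two-sided) on 2839 genes, those with 2 to 6 lists naming them, gave 0 with a Benjamini-Hochberg adjusted p under 0.05 and 40 with an unadjusted p under 0.05. With 4 mice on each diet, p cannot go below 0.0286, a value that only full separation reaches. The 40 are therefore the 12 and 28 separated genes again. With only 40 genes at that p among 2839, none could pass the adjustment.

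**Figure D1:**
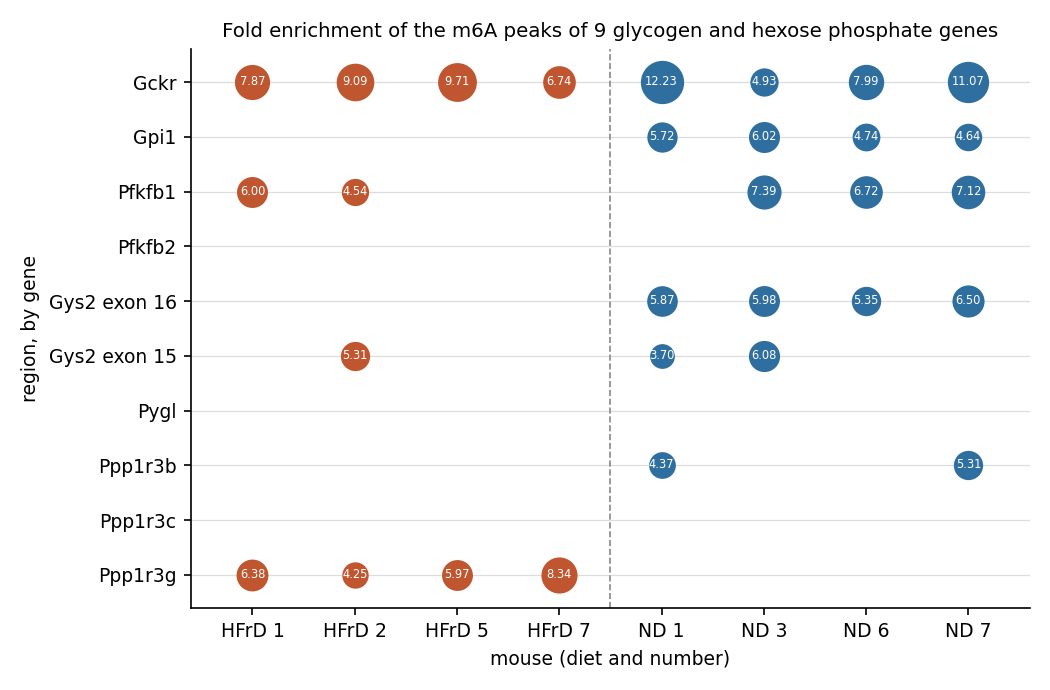
Each dot is an m6A peak; columns are the 4 HFrD mice and the 4 ND mice, rows are the regions of the 9 genes, and the number in a dot is the deposited fold enrichment, which also sets its size. Gckr fills all 8 columns, Ppp1r3g only the HFrD columns, Gpi1 and Gys2 exon 16 only the ND columns, and Pfkfb2, Pygl and Ppp1r3c are empty.

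The number of these genes with a peak was 3, 4, 2 and 2 in HFrD mice 1, 2, 5 and 7, against 4, 4, 4 and 5 in ND mice 1, 3, 6 and 7. The mean was 2.75 ± 0.957 genes in HFrD livers and 4.25 ± 0.5 in ND livers (SD, n = 4 each). Counted as regions, the livers held 3, 4, 2 and 2 with HFrD and 5, 5, 4 and 5 with ND. Only HFrD mouse 2 reached the level of an ND mouse. The HFrD lists were also shorter as a whole, with 8627, 9736, 10093 and 8055 peaks in HFrD mice, against 8959, 9799, 10397 and 11517 in ND mice. With every list reduced to its 8055 highest-scoring peaks, the difference in means was -1.5 genes and -2 regions (HFrD minus ND), and the genes of the whole series that separated the diets numbered 21 toward HFrD and 19 toward ND. With only peaks at a fold enrichment of at least 5 kept, the difference was -1.0 genes and -1.25 regions.

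**Figure D2:**
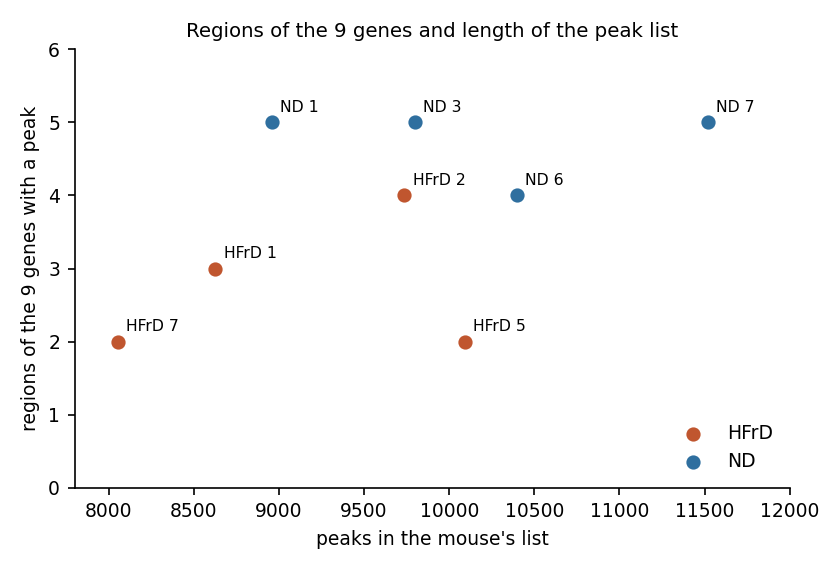
The horizontal axis is the number of peaks in a mouse's list and the vertical axis the number of regions of the 9 genes with a peak; each point is 1 mouse. HFrD mice lie at 2 to 4 regions and 8055 to 10093 peaks, and ND mice at 4 or 5 regions and 8959 to 11517 peaks.

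Gckr encodes a regulatory protein of hepatocytes that senses fructose phosphates. Its peak was the whole of exon 2 of 19, a coding exon of 156 bp. Fold enrichment was 7.87, 9.09, 9.71 and 6.74 in HFrD mice 1, 2, 5 and 7, against 12.23, 4.93, 7.99 and 11.07 in ND mice 1, 3, 6 and 7. The mean was 8.35 ± 1.32 with HFrD and 9.05 ± 3.28 with ND (SD, n = 4 each), and the HFrD values lay inside the range of the ND values. Both the lowest and the highest value belonged to ND mice, and the highest, 12.23, was the largest fold enrichment of the 30 peaks. The exon held a single GGACA and neither GGACT nor GGACC, and 44.0% of regions of like width (within 10%) held at least 1 of these 3 words on the transcript strand.

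Gpi1 encodes glucose-6-phosphate isomerase, which interconverts glucose 6-phosphate and fructose 6-phosphate. It had a peak in all 4 ND mice, and no line of the 4 HFrD lists carried its name. The region, chr7:34201730-34202549, lay in the last exon, number 18 of 18, and covered 136 bp of coding sequence with the stop codon and 684 bp of 3′ untranslated region. Fold enrichment was 5.72, 6.02, 4.74 and 4.64 in ND mice 1, 3, 6 and 7, with a mean of 5.28 ± 0.69 (SD, n = 4). The deposited score, 10 times the negative log10 of the peak's p-value, was 271.16, 231.78, 270.48 and 270.9 in the same mice. These peaks were close in rank as well, at the 63.2, 59.3, 61.5 and 57.5 percentile of their own lists, so that Gpi1 was a middling peak in each ND liver. Their deposited false discovery rates were high, at 90.97%, 93.58%, 83.54% and 74.0% in ND mice 1, 3, 6 and 7. Of all listed peaks, 79.2% had their start coordinate at an exon edge, so such an edge need not be where the enrichment began. Gpi1 lies on the minus strand, so the 5′ edge of its peaks is their end coordinate, for which no such share is given here. All 4 Gpi1 peaks began at the start of the exon, 133 nt before the stop codon. They ended 373, 686, 403 and 396 nt after it, the longest in ND mouse 3. A stretch of 507 bp was common to all, and it held both GGACT words and the coding GGACA shown above. Of regions of like width, 68.5% held GGACT and 50.6% a stop codon.

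Pfkfb1 and Pfkfb2 encode bifunctional enzymes that make and degrade fructose 2,6-bisphosphate, the activator of phosphofructokinase and inhibitor of fructose bisphosphatase. Pfkfb1 had a peak in 2 HFrD mice and 3 ND mice, on a first exon (chrX:150594478-150594774) with 200 bp of 5′ untranslated region, the start codon and 97 bp of coding sequence. Fold enrichment was 6.0 and 4.54 in HFrD mice 1 and 2, against 7.39, 6.72 and 7.12 in ND mice 3, 6 and 7. The ND peaks were thus all higher than the HFrD peaks in fold enrichment, but their scores overlapped, at 97.27 and 53.8 with HFrD and 227.29, 91.11 and 116.25 with ND. Under a score minimum of 100, Pfkfb1 was left in 0 HFrD and 2 ND mice. The region held none of the 3 GGAC words, which 71.2% of regions of like width held, and words of the wider family at 6 places. No line of the 8 lists carried the name Pfkfb2, and no peak of any name lay on its annotated exons. A peak listed as Yod1, a gene on the opposite strand, lay within the body of Pfkfb2 in HFrD mice 2 and 7 (chr1:130717327-130717811), with 0 bp on Pfkfb2 exons and fold enrichments of 4.93 and 5.03.

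Gys2 encodes the liver glycogen synthase. Its peaks fell on exons 15 and 16 of 17, and the exon with the stop codon was the one present in ND mice alone. Exon 16, chr6:142423394-142423633, was covered whole, as 225 bp of coding sequence and 15 bp of 3′ untranslated region. Fold enrichment there was 5.87, 5.98, 5.35 and 6.5 in ND mice 1, 3, 6 and 7, with a mean of 5.93 ± 0.47 (SD, n = 4). The scores were low, at 136.46, 112.35, 51.09 and 107.63, and that of ND mouse 6 lay just above 50, the lowest score in any list. The deposited false discovery rate of the exon 16 peak was 100% in ND mice 1, 3 and 6 and 85.8% in ND mouse 7. With equal list lengths the exon 16 peak was left in 2 of 4 ND mice. Exon 15, a coding exon of 81 bp at chr6:142427354-142427434, had a peak in 1 HFrD and 2 ND mice, so it did not divide the diets. Fold enrichment was 5.31 in HFrD mouse 2, against 3.7 and 6.08 in ND mice 1 and 3, and the deposited false discovery rate was 100% in each. Neither exon held any of the 3 GGAC words, though each held words of the wider family of 12 at 2 places. Of regions of the width of exon 16, 59.4% held at least 1 of the 3 words and 7.0% a stop codon. Pygl, the liver glycogen phosphorylase that releases glucose 1-phosphate from glycogen, was named in no line of the 8 lists, and no peak lay on its annotated exons.

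The remaining 3 genes encode glycogen-targeting subunits of protein phosphatase 1. All 4 HFrD mice had a Ppp1r3g peak and no ND mouse did, whereas Ppp1r3b had one in 2 ND mice and in no HFrD mouse, and Ppp1r3c in none of the 8. The Ppp1r3g region, chr13:35968231-35970388, covered 96.7% of the second and last exon, with 368 bp of 5′ untranslated region, 1044 bp of coding sequence and 746 bp of 3′ untranslated region. Fold enrichment was 6.38, 4.25, 5.97 and 8.34 in HFrD mice 1, 2, 5 and 7, with a mean of 6.23 ± 1.68 (SD, n = 4). Scores spread far more than those of Gpi1, at 62.2, 108.36, 279.77 and 518.06, which placed the peaks at the 11.5, 32.4, 64.8 and 81.0 percentile of their lists. Fold enrichment and score did not order the mice alike, for HFrD mouse 1 had the lowest score and the second highest fold enrichment. The deposited false discovery rate was 95.59%, 100%, 73.49% and 88.87% in HFrD mice 1, 2, 5 and 7. Measured from the stop codon, the peak began 752, 1409, 1314 and 1375 nt before it and ended 696, 748, 748 and 665 nt after it. The shortest, in HFrD mouse 1, left out the start codon, and 1418 bp were common to all 4. The region held GGACT 4 times, GGACC 5 times and GGACA 3 times, 9 of these 12 in coding sequence. GGACT was present in 82.5% of regions of like width, and a stop codon in 74.7%.

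**Figure D3:**
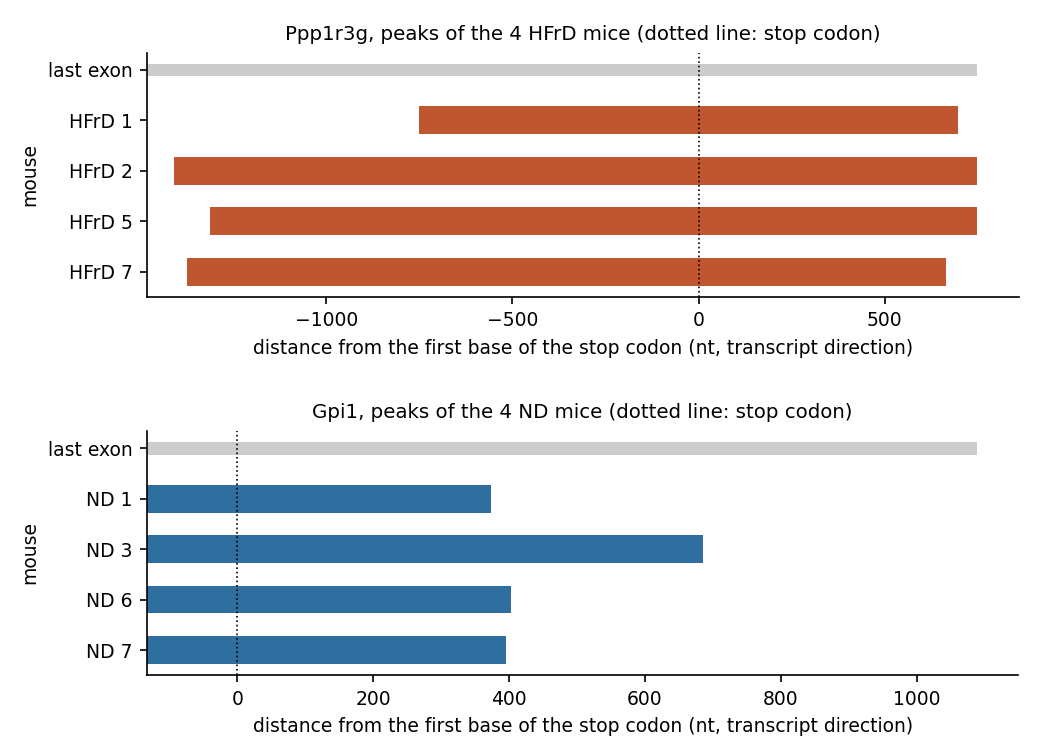
Bars show the extent of each mouse's peak on Ppp1r3g (above, HFrD mice) and Gpi1 (below, ND mice), as distance in nt from the first base of the stop codon in transcript direction; the grey bar is the last exon. The Ppp1r3g peaks reach far into the coding sequence, while those of Gpi1 start 133 nt before the stop codon, at the exon's edge, and run 373 to 686 nt past it.

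Ppp1r3b, the main such subunit of liver, combined the highest scores of the 9 genes with presence in few mice. Its peaks lay on the second and last exon (chr8:35383984-35388137), which carries both the start and the stop codon. In ND mouse 1 the peak was 2710 bp wide with a score of 896.55 and a fold enrichment of 4.37. In ND mouse 7 it was 4154 bp wide with a score of 2060.44 and a fold enrichment of 5.31. These peaks ranked at the 86.4 and 91.6 percentile of their lists, yet 6 mice had none. Of 1038 genes that reached the 91.6 percentile in at least 1 list, 920 had a peak in all 8 mice and 20 (1.93%) in at most 2, against 23.1% of all genes. A gene listed in more mice has more lists in which to reach that percentile, so part of this contrast is built in. ND mice 1 and 7 had the shortest and the longest of the ND lists. The region held GGACT 3 times, GGACC 2 times and GGACA 10 times, and 100% of the 69 regions of like width held GGACT.

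**Figure D4:**
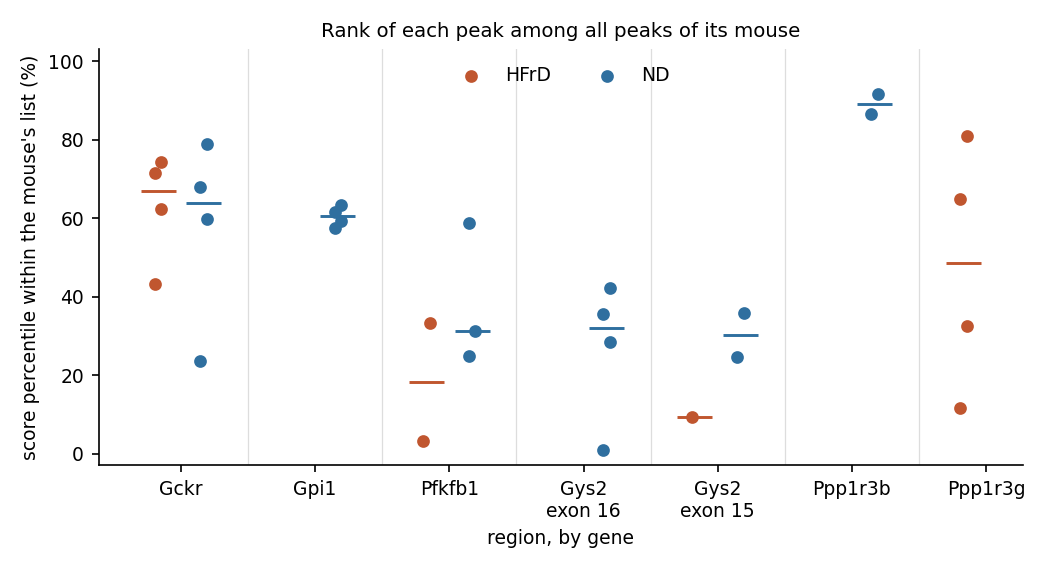
The vertical axis is the percentage of peaks in the same mouse's list that score at or below the peak, for HFrD mice (left in each column) and ND mice (right); points are mice and lines are medians. The Gpi1 points lie between 57.5% and 63.2%, the Ppp1r3g points between 11.5% and 81.0%, and the Ppp1r3b points at 86.4% and 91.6%.

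By position, 4 of the 7 regions held a stop codon (Gpi1, Gys2 exon 16, Ppp1r3b and Ppp1r3g) and 3 a start codon (Pfkfb1, Ppp1r3b and Ppp1r3g), against 23.8% and 22.9% of all regions placed on a transcript. Among regions of like width, a stop codon was held by 50.6% for Gpi1, 7.0% for Gys2 exon 16, 72.5% for Ppp1r3b and 74.7% for Ppp1r3g. The share with a start codon was 38.7% for Pfkfb1, 27.5% for Ppp1r3b and 22.2% for Ppp1r3g. The regions of Gpi1, Ppp1r3b and Ppp1r3g held GGACT, as did 35.9% of all regions. Every region of the 6 genes held at least 1 of the 12 wider words, as did 92.8% of all regions. The deposited false discovery rates were high, from 56.01% to 100% over the 30 peaks and 100% for 9 of them, and the medians of whole lists were 76.91% to 100%.

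The genes most like Gpi1 and Ppp1r3g were taken as those with peaks in the same mice and the nearest median score percentile. For Gpi1, 27 other genes had peaks in the same 4 ND mice alone, and the nearest to its median percentile of 60.4 were Mief2 (59.6), a mitochondrial fission factor, Spsb4 (55.0) and the aquaporin Aqp11 (54.0). For Ppp1r3g, 11 other genes had peaks in the same 4 HFrD mice alone, and the nearest to its median percentile of 48.6 were Marco (48.0), which macrophages use to bind bacteria and modified lipoproteins, Osmr (49.5), which binds oncostatin M, and Tbc1d31 (45.7). Because Marco is a marker of Kupffer cells, its whole marker list is given: 4 of 6 genes had a peak, with 2 to 3 per HFrD mouse and 1 to 3 per ND mouse. Marco had a peak in 4 HFrD and 0 ND mice and Vsig4 in 4 HFrD and 3 ND mice. Clec4f had one in 3 HFrD and 4 ND mice and Csf1r in 0 HFrD and 1 ND mouse, and no peak was listed for Adgre1 or Cd68. Of 10 hepatocyte markers, 6 had a peak, with 3 to 4 per HFrD mouse and 3 to 5 per ND mouse, and Alb, Cps1, Asgr1 and Tat had none, so that peak lists do not by themselves mark the tissue. The part of cell composition in the Ppp1r3g pattern was not tested, and in bulk liver fewer cells of a type and less RNA per cell cannot be told apart.

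The wider pathways were described with a list of 73 further genes, of which 31 had a peak. Of these, 5 had peaks in a larger number of HFrD mice, 13 in a larger number of ND mice and 13 in equal numbers. In gene and mouse pairs these were 56 in HFrD and 67 in ND mice. By Fisher's exact test 0 of the 10 genes tested had an adjusted p under 0.05 and 0 an unadjusted one. Both results follow from the counts, because only a split of 4 against 0 mice gives p under 0.05. No gene of the list had that split. With equal list lengths the split was 8 toward HFrD and 6 toward ND, so the lean toward ND was not kept. Peaks were present in all 8 mice for 7 genes: Ppp1r3e, a further targeting subunit of protein phosphatase 1, Stbd1, which tethers glycogen to membranes, Slc2a1, a glucose transporter, Sord, which oxidises sorbitol to fructose, Aldh1b1, H6pd, and Tkt, the transketolase of the pentose phosphate pathway. Differences of at least 2 mice were seen for Pgm3 and Gsk3b. Pgm3, a sugar phosphate mutase of hexosamine synthesis, had a peak in 1 HFrD and 4 ND mice. Gsk3b, a kinase that inhibits glycogen synthase, had one in 1 HFrD and 3 ND mice.

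By step, 3 of 6 genes of glycogen synthesis had a peak, 0 of them leaning toward HFrD and 1 toward ND. Of 9 genes of glycogen breakdown, 6 had a peak, 1 toward HFrD (Pygb) and 3 toward ND (Gaa, Phka2 and Phkg2). Glycogen regulators and phosphatase subunits had peaks in 5 of 12 genes, 1 toward HFrD (Gsk3a) and 2 toward ND (Gsk3b and Ppp1cc). Apart from Gsk3b, each of these differed by 1 mouse only. Hexose uptake and phosphorylation had peaks in 5 of 11 genes, 0 toward HFrD and 3 toward ND. Khk, the ketohexokinase that begins fructose breakdown, and Slc2a2, the main hexose transporter of hepatocytes, were named in no list. In the pentose phosphate pathway 5 of 8 genes had a peak, 1 toward HFrD and 2 toward ND. Hexosamine and mannose phosphate genes had peaks in 3 of 8, 1 toward HFrD and 2 toward ND. No gene of the glucose-6-phosphatase system (0 of 4) had a peak, and of 10 genes at the fructose phosphate steps only Pfkl did, in 1 HFrD and 1 ND mouse.

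**Figure D5:**
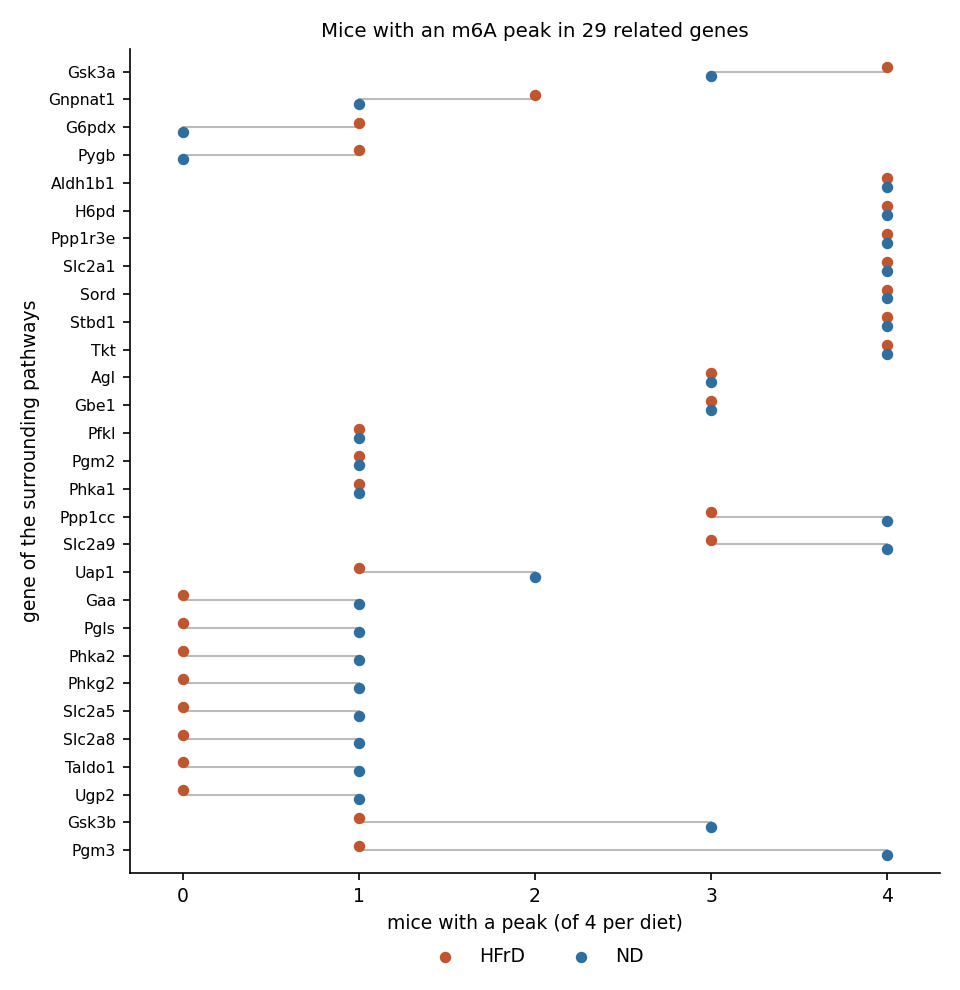
The horizontal axis is the number of mice with a peak, out of 4 per diet, for 29 of the 31 pathway genes with any peak, with HFrD above ND in each row. Most pairs of points lie at the same number or 1 mouse apart, and the widest gap is Pgm3, with 1 HFrD and 4 ND mice.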

How the data were processed

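Immunoprecipitated liver RNA of 4 HFrD and 4 ND mice was represented by 1 deposited peak list each. The submitters' processing notes name cutadapt 1.9.3 for trimming, HISAT2 2.0.4 for alignment and the build mm10. For each mouse, the authors called peaks with MACS (version not given in the sources used here) and kept peaks on mRNA exons. The deposited score is 10 times the negative log10 of the p-value, fold enrichment is a deposited ratio over background, and the false discovery rate is deposited in percent. Scores and fold enrichments of separate lists were not put on a common scale, and are compared between mice as description only. Because 79.2% of starts matched an exon start after adding 1, and 0.406% as deposited, 1 was added. With so many starts there, a peak edge at an exon boundary need not be the limit of the enrichment.

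A gene was present in a mouse whose list named it, and regions merged peaks of all lists overlapping by 1 bp. Regions were placed on RefSeq and GENCODE M21 transcripts of GRCm38 (96.1% matched), and motifs were searched on the strand of the named gene, since the lists themselves give none. Fisher's exact test with Benjamini-Hochberg adjustment was run on genes and regions present in 2 to 6 lists. The p-values rest on counts of mice with and without a peak, with the mouse as the unit. The 9 genes and the lists of pathway and marker genes were chosen with earlier results of these data known. Named beside the 9 genes were pathway genes that differed by at least 2 mice, with counts by set, and the 3 genes most alike to Gpi1 and to Ppp1r3g; other genes in the text were named after their values were seen, and some genes of the list and the fructose breakdown set are not reported here. The alternatives were a fold enrichment of at least 3 or 5, a score of at least 100, lists of equal length (the 8055 top scores), leaving out single mice, only the mouse numbers that the diets share, a reciprocal overlap of 50% and presence by exon overlap. At most 2 peaks with the same position, score and fold enrichment were shared by any pair of lists, so no list was a copy of another. Each list was taken as 1 sample. The software was Python 3.11.15 with scipy 1.17.1, pandas 2.3.3, numpy 2.4.6, pysam 0.24.0 and matplotlib 3.10.9, and the counting of genes that separate the diets was checked on simulated data.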

Additional observations from a re-analysis of the deposited data

Results flagged for a closer look

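Scores, fold enrichments, widths and score percentiles of the 9 genes gave 17 sets of 4 values from the mice of 1 diet, which are not independent of each other. Of these, 3 had 1 mouse far from the other 3, where chance would single out about 1 set in 20 if values were normally distributed, which was not checked. The rule weighs the gap to the nearest value against the range of the set, so 3 nearly equal values are enough to flag the other. The Gpi1 score was 231.8 in ND mouse 3, below the 3 other ND mice, and its peak there was 820 bp wide, the widest of the 4. The other scores lay close together, from 270.48 to 271.16, and the score percentile of ND mouse 3, 59.3, lay among those of the other ND mice. The Ppp1r3g peak was 1449 bp wide in HFrD mouse 1, the narrowest of the 4 HFrD mice. The flagged Gpi1 score and width belong to the same peak, and the cause was not tested.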

How the results depend on the processing

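No member turned from one diet to the other under any alternative. Of 201 values of single genes and regions under alternatives, 153 kept the main value, 48 moved and 0 turned sign. Much of this was set in advance. The 153 include Ppp1r3c, Pygl and Pfkfb2, which had no peak and stayed at 0. Gpi1, Ppp1r3g, Pfkfb1 and Gckr, with 1 region each, count both as gene and as region. For Gpi1, Ppp1r3g and Ppp1r3b, with peaks in 1 diet only, dropping peaks or mice cannot turn the sign. The per-mouse differences over the 9 genes, -1.5 genes and -2 regions (HFrD minus ND), moved by less than 1 SD (0.764) under the fold, score and list length alternatives and the shared mouse numbers, and for regions also under reciprocal overlap; presence by exon overlap was run for single genes and regions only. A fold enrichment of at least 5 gave -1.0 genes and -1.25 regions, and the replicate block gave -2.0 genes and -2.5 regions. With each mouse left out, the differences ranged from -1.917 to -1.25 genes and from -2.417 to -1.75 regions. Ppp1r3g stayed HFrD-only and Gpi1 ND-only in each of them, in every mouse of that diet, except that a fold enrichment of at least 5 left Ppp1r3g in 3 HFrD mice and Gpi1 in 2 ND mice, and a score of at least 100 left Ppp1r3g in 3 HFrD mice. Gckr was then left in 4 HFrD and 3 ND mice under either minimum.

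Counts over the whole series moved more. With equal list lengths the separated genes toward HFrD became 21, the separated regions 31 toward HFrD and 37 toward ND, and the pathway genes 8 toward HFrD and 6 toward ND. A score of at least 100 left 10 regions toward HFrD. With each mouse left out, which by construction asks for fewer mice, the counts ranged from 16 to 28 genes and 21 to 48 regions toward HFrD, and from 39 to 68 genes and 83 to 158 regions toward ND. Pathway genes then ranged from 5 to 11 toward HFrD, with 8 without HFrD mouse 1, 11 without HFrD mouse 7 and 10 without ND mouse 7, and from 9 to 17 toward ND, with 9 without ND mouse 7. In the replicate block, which holds only mice 1 and 7 of each diet, 88 genes and 190 regions separated toward HFrD, 373 genes and 854 regions toward ND, and 2 pathway genes leaned to HFrD. The deviations of same-numbered mice correlated at 0.044 and -0.041. With only numbers 1 and 7 shared, this cannot decide whether the numbers pair the mice, and no pairing was used.

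Peak lists hold no depth, and a missing peak cannot be told from one under the authors' threshold. Transcript levels in the input were not analysed here, so the part of transcript level and depth in peak presence was not tested.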
